A study of Mus musculus with 12 samples.

Results

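The genes described are the collagen chain genes, taken as every gene of the count table whose mouse symbol is Col, a type number, the letter a and a chain number. The rule found 44 members among 32121 genes. Messenger RNA of 12 mouse spleen pieces was sequenced, 2 pieces from each of 6 C57BL/6 mice. In 3 mice, called SB animals, the genotype combined VEC-Cre, the SB transposase and onc2. VEC-Cre is a Cre recombinase driven by a promoter used for endothelium, SB is Sleeping Beauty, an enzyme that moves DNA transposons, and onc2 is a transposon used to mutate genes as it inserts. The other 3 mice were WT controls, for which no allele is named, so VEC-Cre, transposase and transposon differed together between the groups. The ages of the mice are not among the labels used here. The spleens of SB animals were cut into sections 1 and 2 and those of WT animals into sections A and B, called pieces 1 and 2 below, with no anatomical position given. The study's stated question was how alike both pieces of a spleen are, as a reading of its clonality.

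Collagens are secreted proteins of 3 chains wound around each other, and each chain repeats a glycine followed by any pair of residues. Fibrillar chains, such as those of types I, III and V, form the fibres that carry tension. Type IV chains form the sheet-like network of basement membranes, to which types XV and XVIII attach, and the remaining types make beaded filaments, coat fibrils, anchor membranes to the tissue below or span the cell membrane. In the spleen, reticular fibroblasts lay down the fibres that B and T cells move along, and the blood sinuses of the red pulp rest on an interrupted basement membrane. Of the 44 members, 11 were classed as fibrillar, 8 as basement membrane and 25 as other. The coding frames set the fibrillar genes apart by their longest stretch of the glycine repeat. In the longest reading frame of each gene in the GENCODE transcripts, the longest unbroken stretch with a glycine codon at the head of every triplet ran for 216 to 344 triplets in the fibrillar genes (median 338), and for only 30 to 66 in the basement membrane genes (median 41). The basement membrane genes instead held 11 to 27 separate stretches of 5 or more triplets, against 2 to 3 in the fibrillar genes. In the other genes the longest stretch ran for 23 to 113 triplets (median 52), overlapping the basement membrane genes. They held 2 to 21 separate stretches, overlapping both types.

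The 12 libraries held 14320833 to 22031026 counts. The pieces of a spleen differed by more than counting noise (chi-square per degree of freedom 6.09 to 41.6), so all libraries were kept, and the animal was taken as the replicate, with the counts of its pieces summed. The SB spleens were not alike and differed from WT in much more than collagen. RNA of 7 B cell markers (Ms4a1, Cd79a, Cd79b and others) summed to 53.2 to 111 counts scaled to a common library size (CPM) in SB animals and 6855 to 7736 CPM in WT animals. Xist RNA, made from the inactive X chromosome, stood at 1002 CPM or more in SB animals 1 and 2, and SB animal 3 and all WT animals instead had RNA of the Y-linked Ddx3y (60.7 to 96.1 CPM). In such whole-tissue samples, fewer cells of a type and less RNA per cell cannot be told apart, and each share of the RNA depends on all others.

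Among the 37 members with enough counts to test, 5 rose in SB animals: 3 type IV chains of basement membranes (Col4a1, Col4a2 and Col4a3), the fibrillar chain Col5a1 and Col26a1. The members that fell were 2, Col6a4 and Col20a1, and 30 did not pass the test (edgeR quasi-likelihood test on 3 against 3 animals, Benjamini-Hochberg adjusted p under 0.05 over all genes). The members that rose were 13.5% of those tested, beside 7.99% of all 17328 genes tested, and those that fell were 5.41%, beside 9.1% of all genes. These shares lie near the background, and nothing particular to collagen genes is read from them. The median log2 change was 0.17 over the tested members and 0.11 over all genes, and the median size of the change, whatever its sign, was 1.04 and 0.64. Unadjusted, 16 of 37 members and 5995 of all 17328 genes had p under 0.05. The counts depended on the animals and the tool: 11 rose and 5 fell without SB animal 1, 7 fell without SB animal 2, and 1 rose and 0 or 1 fell without any 1 WT animal. Of all genes, 2073 rose and 2089 fell without SB animal 1, and 3184 fell without SB animal 2. Without any 1 WT animal 19 to 94 genes rose and 234 to 305 fell. DESeq2 called 12 members higher and 4 lower, and of all genes it called 2911 higher and 2720 lower.

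By type, 1 of 8 tested fibrillar genes rose and 0 fell, 3 of 8 basement membrane genes rose and 0 fell, and 1 of 21 other genes rose and 2 fell. The median log2 changes were -0.14, 1.43 and -0.05 in that order. The 7 members that were not tested had only 1 to 48 counts over all 12 libraries. They were Col2a1, Col11a1 and Col24a1 of the fibrillar type and Col9a1, Col10a1, Col19a1 and Col25a1 of the other types, several of them known from cartilage or nerve. Of these, Col11a1 had 45 of its 48 counts in SB libraries.

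**Figure D1:**
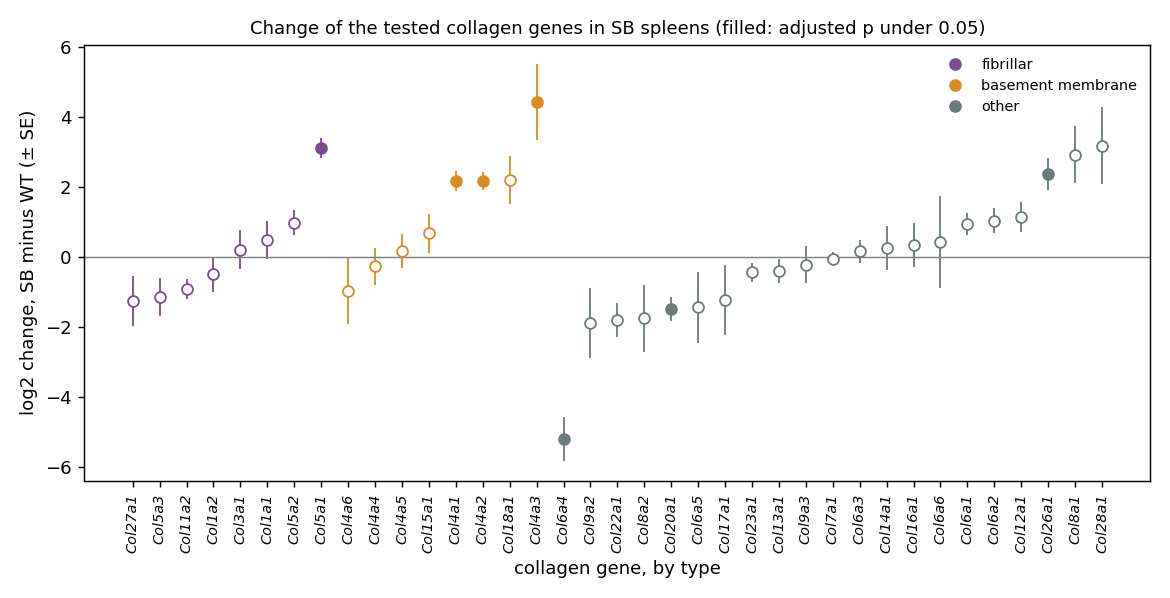
Log2 change of each of the 37 tested collagen genes in SB against WT animals (vertical axis, ± SE, 3 animals each), ordered within type on the horizontal axis. Filled points passed the test: 1 fibrillar, 3 basement membrane and 3 other genes.

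Col4a1 and Col4a2 encode the chains of the most widespread type IV collagen, and both were at their highest in SB spleens. Col4a1 measured 287, 199 and 401 CPM in SB animals 1 to 3, against 59.5, 72.1 and 65.3 CPM in WT animals. Col4a2 was at 222, 193 and 343 CPM in the 3 SB animals, while the WT animals had 54.7, 58.0 and 55.3 CPM. For both genes every SB library lay above every WT library, and SB animal 3 was the highest. The rises were alike, at 2.17 ± 0.29 (log2, SE, edgeR adjusted p = 0.0099) for Col4a1 and 2.17 ± 0.25 (adjusted p = 0.0072) for Col4a2, or about 4.5-fold. Per kilobase of merged exons, Col4a1 and Col4a2 were the most abundant collagen RNAs in SB animals, at 39.6 ± 13.6 and 38.2 ± 11.97 CPM per kilobase (SD, n = 3), and ranked 2 and 4 in WT animals, at 8.79 ± 0.84 and 8.46 ± 0.26. Their ratio per kilobase was 0.91 to 1.14 in SB animals and 0.96 to 1.10 in WT animals. The level of this ratio depends on gene length: with the longest transcripts it was 1.00 to 1.26 in SB and 1.06 to 1.21 in WT animals. Both genes lost their call when any 1 WT animal was left out (adjusted p 0.0613 to 0.0675 for Col4a1 and 0.0539 to 0.0617 for Col4a2), with changes of 2.09 to 2.23 and 2.14 to 2.19. Those fits called 253 to 399 genes in all, against 2961 with 6 animals.

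The genes lie head to head on chromosome 8 (GRCm38), Col4a1 at 11198423 to 11312826 on the minus strand and Col4a2 at 11312805 to 11449287 on the plus strand, with 22 exon bases in common. Since the library kit keeps no strand, reads within those bases cannot be assigned, but they are 0.295% and 0.332% of the exon bases.

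Col4a3, a type IV chain known from kidney and lung basement membranes, reached 2.19, 0.757 and 9.68 CPM in the SB spleens, with WT animals at 0.271, 0.162 and 0.149 CPM. All SB libraries lay above all WT libraries, and SB animal 3 was far above the other two. The gene rose by 4.42 ± 1.08 (log2, SE, edgeR adjusted p = 0.0429), from 19 counts over all WT libraries to 501 over all SB libraries. It lost its call without any 1 WT animal (adjusted p 0.146 to 0.178), with limma voom (0.065) and with piece 2 alone (0.0644). Without SB animal 3 the change was 2.90 (adjusted p = 0.0418). Of its exon bases, 5.65% overlap C430014B12Rik on the opposite strand, a gene with 55 counts in all. Col4a4, which starts beside Col4a3 on chromosome 1 and runs the other way, did not pass the test (-0.27 ± 0.54, adjusted p = 0.757) and stood at 0.582 CPM in SB animal 3, its lowest value among the 6 animals.

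The other basement membrane genes did not pass the test. Col18a1, whose protein releases endostatin, measured 91.2, 34.6 and 242 CPM in SB animals 1 to 3, against 27.4, 29.7 and 22.9 CPM in WT animals. SB animals 1 and 3 lay above WT and animal 2 overlapped WT at the level of libraries, so that the change was 2.20 ± 0.69 (edgeR adjusted p = 0.0789). Col18a1 was called with DESeq2 (adjusted p = 0.0079) and by edgeR without SB animal 2 (2.64, adjusted p = 0.0132). Col15a1 had a change of 0.68, Col4a5 of 0.17 and Col4a6 of -0.97, with adjusted p of 0.431, 0.831 and 0.504.

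Col5a1, whose chain is built into fibrils and limits their width, was the fibrillar gene that rose. It was at 129, 85.7 and 166 CPM in the 3 SB animals, while the WT animals had 16.5, 14.5 and 13.1 CPM. The groups did not overlap in any library (83.6 to 165 CPM against 10.7 to 19.1 CPM). The change was 3.11 ± 0.29 (log2, SE, edgeR adjusted p = 0.00495), or 8.64-fold, and it passed the test in each alternative run, including each fit without 1 animal (2.87 to 3.33). Per kilobase Col5a1 ranked 16 among the members in WT animals and 4 in SB animals. Col5a2, its partner in type V collagen, reached 14.7, 34.9 and 30.1 CPM in the SB spleens, with WT animals at 13.7, 13.8 and 12.9 CPM, with libraries that overlapped and a change of 0.98 ± 0.35 (adjusted p = 0.105). Col5a3 had a change of -1.14 ± 0.55 (adjusted p = 0.195).

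The chains of types I and III, which make up most fibrillar collagen, did not pass the test in either direction. Col1a1 measured 25.1, 126 and 78.8 CPM in SB animals 1 to 3, against 56.6, 53.5 and 53.7 CPM in WT animals. Col1a2 was at 44.9, 194 and 96.5 CPM in the 3 SB animals, while the WT animals had 156, 148 and 169 CPM. Col3a1 reached 18.5, 92.5 and 36.1 CPM in the SB spleens, with WT animals at 42.4, 38.8 and 45.8 CPM. In all 3 genes SB animal 1 lay below WT and SB animal 2 above, while the WT animals were close together. The changes were 0.49 ± 0.54, -0.50 ± 0.50 and 0.21 ± 0.57 (edgeR adjusted p 0.560, 0.525 and 0.821). The direction for Col1a1 and Col3a1 rested on SB animal 2, without which the changes were -0.072 and -0.63, and Col1a1 passed the test without SB animal 1 (0.91, adjusted p = 0.0470). With limma voom the change of Col3a1 was -0.11.

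The upstream sequences of Col5a1 and Col3a1 are shown because these fibrillar genes differ in their result, the first with the smallest adjusted p of the members and the other without a call. Each line gives the 250 bases before the gene start in RefSeq (GRCm38.p6), written 5′ to 3′ on the gene's own strand, and neither window touches an annotated exon. Capitals mark 3 motifs. One is the CCAAT box, spelled CCAAT. Another is the TATA box, searched as TATAAA. The last is the GC box, searched as GGGCGG. Each was searched on both strands, so that a capital run may also show the reverse complement, and no marked motif overlaps another in these lines.
Col5a1, chr2:27886175-27886424, plus strand: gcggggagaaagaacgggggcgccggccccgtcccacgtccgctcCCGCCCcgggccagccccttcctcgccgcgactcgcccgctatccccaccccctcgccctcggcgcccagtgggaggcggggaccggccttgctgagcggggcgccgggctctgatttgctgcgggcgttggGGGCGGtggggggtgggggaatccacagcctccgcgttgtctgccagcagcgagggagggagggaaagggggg
Col3a1, chr1:45311288-45311537, plus strand: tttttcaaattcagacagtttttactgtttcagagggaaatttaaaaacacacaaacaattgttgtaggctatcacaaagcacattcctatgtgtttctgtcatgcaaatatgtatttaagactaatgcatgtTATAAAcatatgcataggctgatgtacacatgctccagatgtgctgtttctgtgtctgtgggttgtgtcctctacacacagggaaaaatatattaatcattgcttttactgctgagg
The Col5a1 window held the GC box and neither other motif, at a GC content of 76.4%, and the Col3a1 window held the TATA box alone, at 35.2%. The windows of Col4a1 and Col4a2, at 74.4% and 73.6%, both held the CCAAT box, and that of Col4a2 also held the GC box. Unlike the printed windows, both lie within annotated exons over all 250 bases. RefSeq windows matched 35 of the 44 members with 38 starts, and the median GC content was 59% over these and 52.4% over all 32851 windows. CCAAT was found in 13 of the 38 windows and in 33.8% of all windows, TATAAA in 5 and in 12.4%, and GGGCGG in 22 and in 32.7%. These matches describe the letters only.

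**Figure D2:**
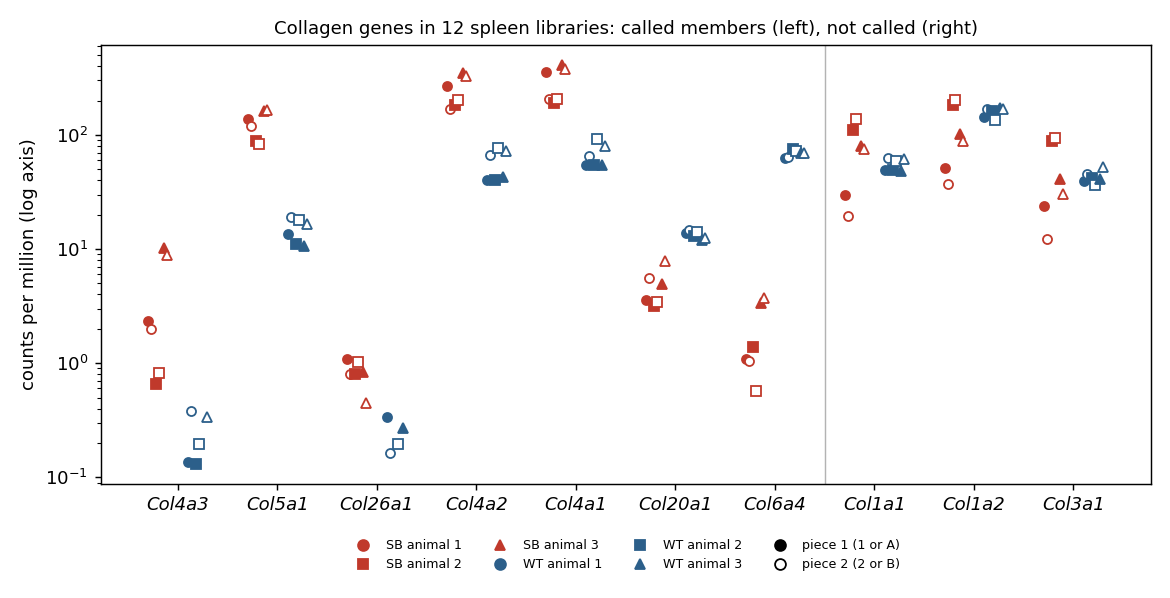
CPM (log axis) in each of the 12 libraries for the 7 called members and for Col1a1, Col1a2 and Col3a1. Colour gives the genotype, shape the animal and fill the piece, and 3 WT libraries at 0 (2 of Col26a1 and 1 of Col4a3) are not drawn. The called members show no overlap between genotypes, and the type I and III chains spread widely among SB animals only.

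Type I collagen joins 2 chains from Col1a1 with 1 from Col1a2, and the ratio of these RNAs is given here by animal. Per kilobase of merged exons, the ratio of Col1a1 to Col1a2 was 1.06, 1.23 and 1.55 in SB animals and 0.687, 0.684 and 0.601 in WT animals. Every SB animal lay above every WT animal, at 1.28 ± 0.25 against 0.66 ± 0.05 (SD, n = 3). This is a description with no test. The level of the ratio, though not its order, depends on gene length: with the longest transcript in place of merged exons, which shortens Col1a2 from 12426 to 5348 bases, the means were 0.61 and 0.31. The remaining fibrillar genes were lower in SB animals without passing the test, Col27a1 at -1.24 ± 0.71 (adjusted p = 0.266) and Col11a2 at -0.92 ± 0.28 (adjusted p = 0.0718, edgeR). All SB libraries of Col11a2 lay below all WT libraries (6.50 to 15.8 CPM against 18.2 to 22.3 CPM).

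Type VI collagen forms beaded filaments close to cells, and 1 of its 6 genes passed the test. Col6a4 was the collagen gene with the largest change of any tested. It measured 1.08, 0.909 and 3.57 CPM in SB animals 1 to 3, against 62.6, 72.6 and 68.8 CPM in WT animals. The SB libraries reached at most 3.69 CPM and the WT libraries were at least 62.4 CPM. Col6a4 fell by 5.19 ± 0.63 on the log2 scale (edgeR adjusted p = 0.00839), or 36.5-fold, and its adjusted p was 0.0538 without WT animal 2 and 0.0455 and 0.0459 without WT animals 1 and 3. Per kilobase it ranked 6 among the members in WT animals and 29 in SB animals. The neighbouring genes Col6a5 and Col6a6 on chromosome 9 were low in both groups. Their mean levels were 0.579 and 1.25 CPM in SB animals and 1.57 and 0.926 CPM in WT animals, with no call for either (adjusted p 0.363 and 0.844).

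Col6a1 and Col6a2, the chains found in all common type VI molecules, lay above the WT mean in each SB animal. Col6a1 was at 28.7, 54.1 and 27.0 CPM in the 3 SB animals, while the WT animals had 19.1, 16.4 and 21.4 CPM, with overlapping libraries and a change of 0.95 ± 0.32 (edgeR adjusted p = 0.0984). Col6a2 had a change of 1.04 ± 0.36 (adjusted p = 0.0984) and Col6a3 of 0.16 ± 0.33 (adjusted p = 0.758). None of these 3 passed the test.

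Among the fibril-associated genes, whose proteins sit on the surface of fibrils, 1 passed the test. Col20a1 reached 4.49, 3.30 and 6.43 CPM in the SB spleens, with WT animals at 14.3, 13.4 and 12.1 CPM, with no overlap of libraries. Col20a1 fell by 1.48 ± 0.33 on the log2 scale (edgeR adjusted p = 0.0343). It lost its call without any 1 WT animal (0.137 to 0.149), with no filter on low counts (0.0528) and with piece 2 alone (0.0756), and 1.54% of its exon bases overlap another gene on the same strand. Col22a1 also had all SB libraries below all WT libraries (at most 0.466 CPM against at least 0.590 CPM), with a change of -1.79 ± 0.48 and an adjusted p of 0.0535. Col14a1, on average the most abundant gene of this class per kilobase, measured 30.4, 148 and 37.1 CPM in SB animals 1 to 3, against 62.0, 63.2 and 54.8 CPM in WT animals. SB animal 2 was above and the other SB animals below WT, and the change was 0.26 ± 0.62 (adjusted p = 0.799). The direction rested on SB animal 2, without which Col14a1 was called lower (-0.83, edgeR adjusted p = 0.0155). With limma voom its change was -0.14. Col12a1 had a change of 1.14 ± 0.43 (adjusted p = 0.122).

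Col26a1, a short collagen described in gonads, was at 0.966, 0.939 and 0.655 CPM in the 3 SB animals, while the WT animals had 0.241, 0.0975 and 0.149 CPM. No libraries overlapped, but the whole call rests on 92 counts in SB and 16 in WT libraries. The gene rose by 2.36 ± 0.45 (log2, SE, edgeR adjusted p = 0.0222) and lost its call without any 1 WT animal (0.075 to 0.135), with no filter on low counts (0.0519) and with piece 1 alone (0.128). Col28a1 was the member with all SB libraries above all WT libraries that did not pass the test. It reached 27.6, 2.21 and 3.47 CPM in the SB spleens, with WT animals at 1.29, 1.69 and 0.714 CPM, and the change of 3.17 ± 1.10 had an adjusted p of 0.101. Col8a1, a chain of the network around vessels, had a change of 2.92 ± 0.82 (adjusted p = 0.06), and its partner Col8a2 of -1.74 ± 0.96 (adjusted p = 0.249). The transmembrane genes Col13a1, Col17a1 and Col23a1 had changes of -0.39, -1.23 and -0.44 with no call. In all, 6 members (16.2%) had every SB library above every WT library, beside 13.2% of all genes, and 4 (10.8%) had every SB library below, beside 16.4%.

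Summed over all members, collagen RNA was 152, 177 and 216 CPM per kilobase in SB animals 1, 2 and 3 and 95.2, 95.7 and 96.4 in WT animals. The summed level of basement membrane genes was 86.5, 62.2 and 142 CPM per kilobase in SB animals and 21.01, 23.4 and 21.4 in WT animals. The summed fibrillar level was 28.4, 61.9 and 48.2 CPM per kilobase in SB animals and 34.3, 32.7 and 35.1 in WT animals, and the other genes summed to 36.9, 53.2 and 26.0 against 39.9, 39.6 and 39.8. The basement membrane sums did not overlap between genotypes, whereas the sums of the remaining types did. Most of the basement membrane sum came from 3 genes and does not describe the whole class. Of the mean SB sum of 96.8, Col4a1 held 39.6, Col4a2 38.2 and Col18a1, which was not called, 17.4. In WT animals they held 8.79, 8.46 and 3.80 of a mean sum of 21.96. Basement membrane genes made up 52.6 ± 15.7% of the total in SB animals and 22.9 ± 1.35% in WT animals (SD, n = 3), and fibrillar genes 25.3 ± 8.52% and 35.5 ± 1.22%. SB animal 2 had the lowest basement membrane share among SB animals, 35.1%, and a fibrillar share of 34.9%, beside 34.2 to 36.4% in WT animals. These are descriptions with no test, and with the longest transcript as the length the mean WT fibrillar share was 44.9%, and SB animal 2, at 42.2%, lay below the WT range of 43.3 to 46.2%.

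**Figure D3:**
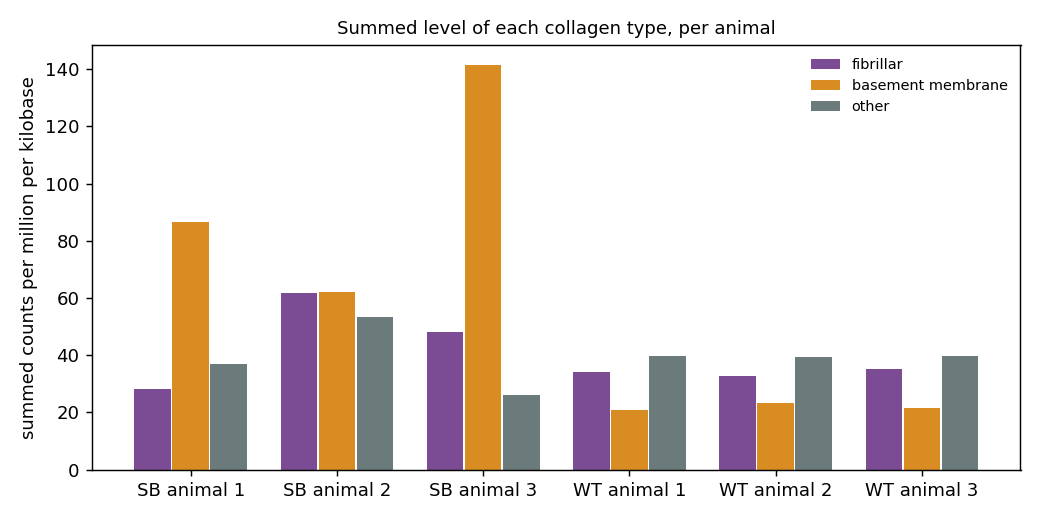
Summed CPM per kilobase (vertical axis, from 0) of the fibrillar, basement membrane and other collagen genes in each of the 6 animals. The basement membrane bars of the 3 SB animals stand at 62.2 to 142, above the WT bars at 21.01 to 23.4.

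Genes that act on collagen chains were counted in 6 lists, beside 7.99% of all genes tested that rose and 9.1% that fell. Of 5 crosslinking enzymes, 2 rose and 0 fell. Lox, which oxidises lysines of collagen and elastin, measured 23.8, 51.3 and 69.6 CPM in SB animals 1 to 3, against 4.24, 2.86 and 3.81 CPM in WT animals, a rise of 3.73 ± 0.46 (log2, SE, edgeR adjusted p = 0.00868). Loxl2, a relative that acts on type IV collagen, rose by 3.02 ± 0.48 (adjusted p = 0.0136). Of 17 genes of folding and hydroxylation, 4 rose and 1 fell. The 4 were P4hb (1.23), a subunit of prolyl 4-hydroxylase that also serves as a general disulfide isomerase, P3h1 (1.05) and P3h2 (1.03), which are prolyl 3-hydroxylases, and Plod1 (2.48), a lysyl hydroxylase. P4ha3, a catalytic subunit of prolyl 4-hydroxylase, fell by 2.80 on the log2 scale. The main catalytic subunit P4ha1 (0.61, adjusted p = 0.466) and the collagen chaperone Serpinh1 (0.19, adjusted p = 0.625) did not pass the test.

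Genes of secretion, of collagen binding and of the surrounding matrix were counted in the same fit. None of the 8 tested genes of procollagen secretion and cleavage rose or fell. Among 10 collagen receptors Itgb1, the integrin beta chain shared by all collagen-binding integrins, rose by 0.91, and Ddr1, a receptor kinase for collagen, fell by 2.13. Among 15 laminin, nidogen and perlecan genes, which share the basement membrane with type IV collagen, Nid1 (0.77) and Nid2 (2.83) rose, and 2 fell, among them Lamb2, which fell by 1.04. Perlecan, encoded by Hspg2, had a change of 1.01 and an adjusted p of 0.0625. Among 12 fibril-binding proteins Tnxb fell by 0.67 and none rose. The median log2 change was 1.63 for crosslinking, 0.31 for folding and hydroxylation, 0.15 for secretion and cleavage, 0.32 for receptors, 0.63 for laminins and their partners and -0.49 for fibril-binding proteins, beside 0.11 over all genes. Over these lists and the marker lists 39 of 129 tested genes were called, beside 2961 of all 17328 genes. Without any 1 WT animal 8 of 130 or 131 list genes were called, beside 253 to 399 of all genes. Nothing particular to the lists is read from these counts.

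Some marker genes of cells that make or carry collagen were called by genotype as well. Not called were 7 of 10 endothelial, 4 of 10 reticular fibroblast and 6 of 8 smooth muscle and pericyte markers. Of all genes tested, 7.99% rose and 9.1% fell. Of 10 endothelial markers, 2 rose (Eng and Stab2) and Pecam1 fell, and their summed level was 982, 621 and 1109 CPM in SB animals and 641, 674 and 615 CPM in WT animals. Cdh5, the gene of VE-cadherin, was at 53.2, 47.8 and 178 CPM in the 3 SB animals, while the WT animals had 33.3, 38.3 and 34.8 CPM (edgeR adjusted p = 0.132). Of 10 reticular fibroblast markers, 5 fell (Ccl19, Ccl21a, Cxcl13, Madcam1 and Tnfsf11) and Pdgfrb rose, from 38.8 ± 4.38 to 70.9 ± 17.3 CPM (SD, n = 3). Their summed level was 171 to 383 CPM in SB animals and 997 to 1138 CPM in WT animals. Of 8 smooth muscle and pericyte markers 2 fell, Myh11 and Des, while Acta2 had a change of -1.92 (adjusted p = 0.135). Their summed level was 60.7 to 152 CPM in SB and 256 to 337 CPM in WT animals. No endothelial, fibroblast or smooth muscle marker was at 0 throughout a group.

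Markers of other cells were counted in the same way. Of 7 B cell markers all fell, of 8 erythroid markers 4 rose and of 6 megakaryocyte markers 2 rose. None of 6 macrophage markers and none of 5 tested markers of the mesothelial capsule was called. Of the adipose list only Fabp4, a gene that capillary endothelium also makes, had enough counts to test, and it rose, while Adipoq, which fat cells make, averaged 0.0351 CPM in SB and 0.276 CPM in WT animals. Of the pancreas list only Cela1 was tested and it was not called. The part of all these cells in the collagen differences was not tested. All 7 called members lay on the same side of WT in SB animal 3, which had Y-linked RNA as the WT animals did, as in SB animals 1 and 2. The test that chose these members includes SB animal 3, so its agreement is no separate check. The part of sex was not tested.

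Within WT spleens, 4 collagen genes passed the test between the pieces. In section B against A, 4 of 37 tested members rose and 0 fell (edgeR with the animal as a block), or 10.8%, beside 5.49% of all 16787 genes tested that rose and 2.83% that fell. Nothing particular to collagen genes is read from these shares, and the median log2 change was 0.12 over the members and 0.0069 over all genes. Unadjusted, 14 members had p under 0.05, with no count over all genes given at that threshold, so nothing is read from this number. Col7a1, the anchoring fibril chain, stood at 21.3, 16.4 and 18.3 CPM in section A and at 31.9, 36.6 and 34.3 CPM in section B of WT animals 1, 2 and 3, a rise of 0.88 ± 0.12 (log2, SE, adjusted p = 0.00608). Col14a1 stood at 48.1, 47.9 and 40.8 CPM in A and 73.9, 79.8 and 73.8 CPM in B, a rise of 0.73 ± 0.11 (adjusted p = 0.00628). In both genes all B sections lay above all A sections.

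Col5a1 and Col4a2, which rose in SB spleens, also rose in section B of WT spleens. Col5a1 stood at 13.4, 11.1 and 10.7 CPM in section A and at 19.1, 18.1 and 16.4 CPM in section B, a rise of 0.60 ± 0.09 (log2, SE, edgeR adjusted p = 0.0066). Col4a2 stood at 40.0, 40.5 and 42.8 CPM in A and at 67.2, 76.5 and 72.4 CPM in B, a rise of 0.81 ± 0.13 (adjusted p = 0.00987). Again no A section reached a B section. Col4a1, with 0.52 ± 0.15, did not pass (adjusted p = 0.067). Without WT animal 2 or WT animal 3, no member and no gene of the whole table was called between the WT sections, and the 4 changes were 0.56 to 0.87 with adjusted p of 0.0814 to 0.123. Without SB animal 1, 9 members were called, beside 3345 of all 17256 genes tested, against 1397 genes with every animal. Leaving that animal out changes the shared estimate of spread, and also the filter on counts, the scaling and the adjustment. With no block for the animal, 0 members and 0 genes were called.

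Other cell markers differed between the WT sections too. In section B, all 8 erythroid markers, 5 of 6 macrophage markers, 5 of 10 endothelial markers, 3 of 10 reticular fibroblast markers, 1 of 5 mesothelial markers and Cela1 of the pancreas list rose. Of the fibroblast and smooth muscle lists 1 gene each fell, and none of 7 B cell markers was called. The summed endothelial level in B was 1.09 to 1.21 times that in A, the summed macrophage level 1.19 to 1.83 times and the summed erythroid level 1.31 to 2.70 times. The part of these cells in the collagen differences between sections was not tested.

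Within SB spleens, no member was called between sections 2 and 1 (edgeR with the animal as a block), and 0% of all genes were called higher and 0% lower. At an unadjusted p under 0.05 there were 4 members, with no count over all genes given at that threshold, so nothing is read from this number. DESeq2 called 0 members and 265 of all genes. With no filter on low counts, or without SB animal 2, 2 members were called, beside 1357 of 32121 and 812 of 17523 genes. Between genotypes the section difference itself was unequal for 3 members, all lower in SB: Col5a1 at -0.69 ± 0.11, Col14a1 at -0.86 ± 0.15 and Col4a2 at -1.01 ± 0.18 (log2, SB minus WT, SE, edgeR adjusted p 0.041, 0.041 and 0.0415). They were 8.11% of the members, beside 0.959% of all genes that were lower and 0.268% that were higher by this test. In SB animals 1, 2 and 3 the log2 ratio of piece 2 to piece 1 was -0.68, 0.14 and -0.09 for Col4a2 and -0.55, 0.10 and -0.02 for Col14a1, so the SB spleens shared no direction. Col7a1 was higher in piece 2 in all 3 SB animals (0.45, 0.29 and 0.23) and did not pass the test of the difference (adjusted p = 0.124). Without SB animal 3, WT animal 2 or WT animal 3 no member was called for a difference (adjusted p for these 3 genes 0.178 to 0.1996). Without SB animal 2 there were 5 members, beside 362 of 17523 genes. With no block for the animal there were 0. The comparison sets section A beside 1 and B beside 2, though no label says that they are the same place in the spleen.

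**Figure D4:**
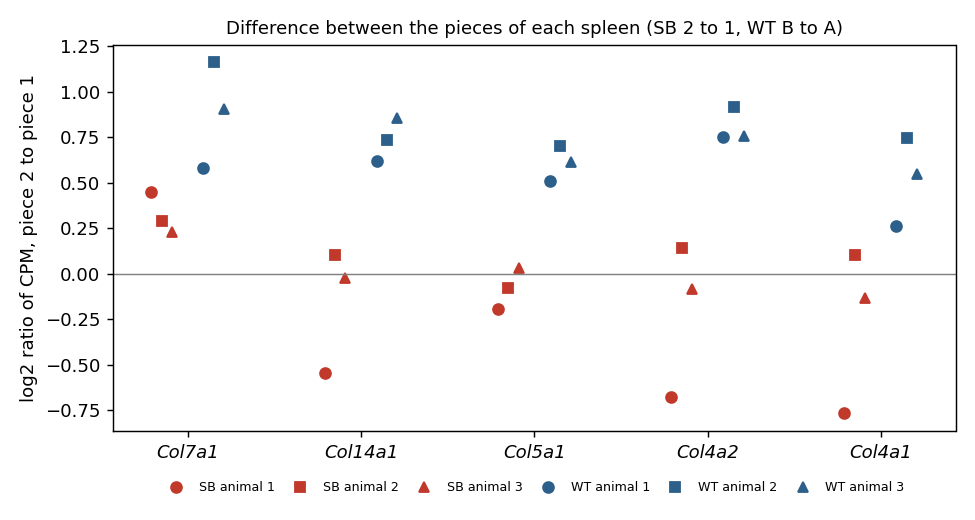
Log2 ratio of CPM in piece 2 to piece 1 of each spleen for Col7a1, Col14a1, Col5a1, Col4a2 and Col4a1. The WT animals (blue) lie above 0 for all 5 genes, and the SB animals (red) lie on both sides of 0 for all but Col7a1.

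Most collagen genes, like most of all genes tested, were unequal among the SB spleens, and none passed that test among the WT spleens. Of 33 members tested by edgeR F tests, 27 were unequal among SB animals (81.8%, beside 72.8% of all 15523 genes tested). Among WT animals 0 were unequal, beside 0.335% of all genes. DESeq2 also called 0 members among WT animals, beside 232 of 16040 genes. Unadjusted, 2 members had p under 0.05 among WT animals in the edgeR test. No count over all genes is given at that threshold, so nothing is read from this number. The shares of members called lie near the background, and nothing particular to collagen genes is read from them. The F tests take their error from the pieces of a spleen and compare these 6 spleens only. Among the 27 genes the highest SB animal exceeded the lowest by a median of 4.32-fold, beside 1.21-fold among WT animals. These genes were chosen for being unequal among SB animals, so the medians do not compare the spread of the genotypes. SB animal 2 held the highest level of 16 of them, SB animal 3 of 6 and SB animal 1 of 5. No such split over all genes is given, so nothing particular to collagen genes is read from it.

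Genes with their highest level in each SB spleen are described in turn. A gene has a single highest animal, so these sets are separate by construction. In SB animal 1, Col28a1 at 27.6 CPM was 12.5 times its level in SB animal 2, and Col16a1, a fibril-associated chain, stood at 61.4 CPM against 18.2 and 11.8 CPM in SB animals 2 and 3 and 22.4 to 25.1 CPM in WT animals (edgeR adjusted p 6.13e-08 and 7.34e-08 for inequality among SB animals). In SB animal 2, Col1a1, Col1a2, Col3a1 and Col14a1 were 4.32 to 5.04 times the level of SB animal 1. Col6a6 was 36.2 times its lowest level, in SB animal 3, at 3.51 CPM against 0.0971 CPM. In SB animal 3, Col18a1 at 242 CPM was 6.98 times its level in SB animal 2 (adjusted p = 1.70e-07), together with the highest Col4a1. Of the genes that rose with genotype, the abundant ones had a highest to lowest ratio among SB animals of 1.94 for Col5a1, 2.02 for Col4a1 and 1.77 for Col4a2, the last not called unequal (adjusted p = 0.115). Col4a3 and Col26a1 were not tested for this. The genotype test takes its error from the spread among animals, so a small spread among SB animals favoured a call. The low ratios are therefore no separate trait of the genes that rose. Col18a1, with a change of 2.20 by genotype and the ratio of 6.98, was not called by genotype. SB animal 2 also had a summed macrophage marker level of 6601 CPM, against 745 and 943 CPM in SB animals 3 and 1 and 819 to 865 CPM in WT animals, and SB animal 3 had the highest summed endothelial level, 1109 CPM. Their part in these differences was not tested.

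**Figure D5:**
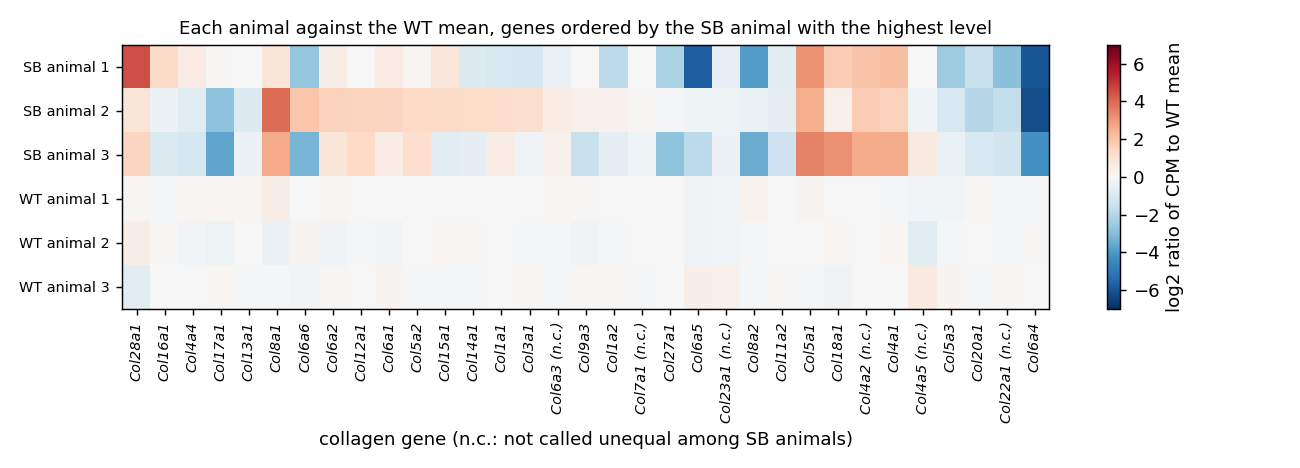
Log2 ratio of CPM in each animal to the WT mean (colour scale) for the 33 members tested among animals. Genes are ordered by the SB animal with the highest level, which is SB animal 1 for 5, SB animal 2 for 16 and SB animal 3 for 6 of the 27 called genes.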

How the data were processed

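Poly-A RNA of 12 spleen pieces was sequenced from unstranded libraries, per the labels' protocols. The authors deposited 1 table of whole-number read counts per Ensembl gene, not normalised, judged from the values, which sum to 14320833 to 22031026 per library. STAR 2.5.3a, limma, mm10 and GRCm38 stand in the submitters' processing notes with no stated role. For the counting mode and annotation release the sources used here give nothing. Without strand, reads of overlapping antisense genes cannot be told apart, and near-identical copies may share reads. Symbols, coordinates and lengths came from GENCODE release M21 (GRCm38), which matched 32026 of 32121 genes. 0 columns belonged to no sample.

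Counts of both pieces were summed per animal and SB compared with WT by edgeR 4.0.16 in R 4.3.3 (TMM, filterByExpr, robust quasi-likelihood, two-sided, Benjamini-Hochberg over all genes tested, called under 0.05). Sections were compared over 12 libraries with the animal as a block, since both pieces come from the animal named in their titles, and animals of a genotype by F tests. SE came from the F statistic. CPM used TMM-scaled library sizes, and levels per kilobase used merged exons. Tested on simulated counts, the genotype fit recovered 92.5% of 32-fold changes and 0% of 4-fold changes, so a member without a call may still differ. In the real counts the fit called smaller changes, such as Col20a1 at 2.79-fold, so the simulation does not give the sensitivity in these data. Alternatives were DESeq2 1.42.0, limma voom 3.58.1, RLE size factors, no filter, single pieces, no block, other lengths and leaving out each animal.

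The members and gene lists were chosen with earlier results of these data known. Named members are those called by genotype, the 8 highest per kilobase, the main chains of types I, III and IV, and up to 6 of smallest p called between sections or animals. Others with values were chosen by class after their values were seen. From the lists, up to 4 called genes of smallest adjusted p per pathway list are named, with Serpinh1, P4ha1, Lox, Cdh5, Pdgfrb and Acta2. A called gene of these lists is not reported here.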

Additional observations from a re-analysis of the deposited data

Results flagged for a closer look

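In 3 genes the difference between the pieces of a spleen was unequal in SB and WT animals by a direct test (edgeR adjusted p 0.041, 0.041 and 0.0415). The difference, SB minus WT, was -0.69 for Col5a1, -0.86 for Col14a1 and -1.01 for Col4a2 on the log2 scale.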

How the results depend on the processing

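Alternatives kept the direction of the 7 genes called by genotype, and Col5a1 passed in all of them. The number of members called higher in SB (5) was 12 with DESeq2, 3 with piece 2 alone and 1 to 11 when 1 animal was left out, and the number called lower (2) was 4 with DESeq2, 1 without the filter on low counts, 1 with piece 2 alone and 0 to 7 without 1 animal. Of the list genes, 39 were called, 61 with DESeq2 and 8 to 56 without 1 animal. Between WT sections (4) the number was 7 with DESeq2, 10 without the filter, 0 with no block for the animal and 0 to 9 without 1 animal. Between SB sections (0) it was 2 without the filter and 0 to 2 without 1 animal. For unequal section differences (3) it was 10 without the filter, 0 with no block and 0 to 5 without 1 animal. The calls over all genes moved too. By genotype they were 2961 of 17328 in the main fit and 5631 with DESeq2. They were 2236 of 32121 without the filter and 2205 of 15780 with piece 2 alone. Between WT sections they were 1397 of 16787 in the main fit and 1260 with DESeq2. They were 2194 of 32121 without the filter and 0 with no block. For unequal section differences the main fit called 206 genes, against 1218 of 32121 without the filter and 0 with no block. Without 1 animal the calls over all genes were 253 to 6174 by genotype and 0 to 3345 between WT sections. Between SB sections they were 0 to 812, and for unequal section differences 0 to 540. Fits without 1 animal have fewer samples, and the cause of the other shifts was not tested. With the longest transcript as gene length, the WT fibrillar share was 44.9% in place of 35.5%, and the ratio of Col1a1 to Col1a2 was 0.61 in place of 1.28 in SB and 0.31 in place of 0.66 in WT. Without 1 animal the change of Col1a1 ranged from -0.072 (without SB animal 2) to 0.91 and that of Col3a1 from -0.63 (without SB animal 2) to 0.60, and with limma voom that of Col3a1 was -0.11. No label pairs an SB animal with a WT animal, so the block was used within spleens only. Low counts limit Col26a1, Col4a3 and the 7 untested members.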
